A study of Homo sapiens with 15 samples.

Results

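The FOS and JUN families encode the subunits of AP-1, a dimeric transcription factor of the basic leucine zipper class. The account below covers 10 genes: FOS, FOSB, FOSL1 and FOSL2, the FOS family; JUN, JUNB and JUND, the JUN family; BATF3, which pairs with JUN proteins; and MAFF and MAFK, small MAF proteins that have a leucine zipper but no activation domain of their own. They were taken by name from 19845 rows of normalized read counts, and all 10 were found. They were selected on their normalized counts in earlier results of these same libraries, so their own values are given as levels, log2 differences and standard errors, without p-values. Where a member is said to pass or miss the adjusted p threshold used across all genes, this is description only, and nothing is read from it.

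RNA was sequenced from HCC1954, an established HER2-positive human breast cancer cell line, in 15 libraries of 4 groups. These were cells of metachronous brain metastases (M-BM, 4 libraries), latent or residual brain-tropic cells (Lat, 4), cells of synchronous brain metastases (S-BM, 4), and the parental line (Pa, 3). All groups derive from the same line, carry the HER2+ label and were cultured overnight in a medium named R3F before RNA was extracted, and no other treatment is labelled. The labels do not say by what host or route the brain-tropic cells were obtained, whether a group was a clone or a pool, or whether its libraries were separate cultures, so p-values measure only the spread between these libraries, which may be technical. The comparisons ask how late-arising metastases and latent cells differ from early metastases and from each other, and how all of them stand to the parental line.

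Within AP-1, a FOS protein does not pair with itself and binds DNA with a JUN partner, whereas JUN proteins also pair with one another. FOS, FOSB and JUNB are classic immediate early genes, switched on within minutes by growth factors through MAP kinases and the serum response factor, while FOSL1 is a slower, longer-lasting product of ERK signalling that AP-1 itself can activate. In breast cancer cells FOSL1 is known for its high level in invasive, mesenchymal-like lines. Small MAF proteins pair with NFE2L2 (NRF2) and its relatives at antioxidant response elements, or with one another.

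Reads assigned to genes came to 20.55 to 21.84 M reads in the M-BM libraries, 14.15 to 19.50 M reads in Lat, 13.25 to 20.05 M reads in S-BM and 15.51 to 18.66 M reads in Pa. On the normalized scale 3 reads came to 0.136 to 0.225, a floor for counting error alone. The epithelial markers EPCAM, KRT8, KRT18 and CDH1 were present in every library, with EPCAM at 167 to 278. Of 6 epithelial markers tested, 0 were higher and 3 lower (KRT8, KRT18 and CDH1) by limma in each comparison with S-BM. KRT8 was at 425 to 676 in M-BM, 486 to 597 in Lat, 999 to 1157 in S-BM and 1681 to 2017 in Pa, and CDH1 at 415 to 608 in M-BM, 348 to 445 in Lat, 681 to 840 in S-BM and 832 to 897 in Pa, so both ran opposite to FOSL1, and their part in the results was not tested. Of 22 brain and stromal markers, 17 were listed and GFAP did not exceed 0.10. Their summed level was 163 to 229 in M-BM, 172 to 204 in Lat, 309 to 436 in S-BM and 461 to 576 in Pa, most of it MBP and SLC1A3, of which SLC1A3 fell to a mean of 56.2 in M-BM and 44.7 in Lat, against 213 in S-BM, and the part of this sum in the results was not tested. Not all of these markers followed the sum. MAG was at 2.19 to 6.78 in M-BM and 4.43 to 5.07 in Lat, against 0.989 to 1.65 in S-BM and 0.666 to 1.76 in Pa. CSF1R reached 14.9 in Lat and 13.7 in S-BM, against 3.46 in Pa. ERBB2 (HER2) went against the HER2+ label in a pair of libraries. S-BM 3 had 353 and S-BM 4 had 367, whereas all others had 2801 to 4959. S-BM 3 and 4 were also the most alike of all pairs within a group, although they differed by more than sampling noise, with a chi-square of 4.08 per gene. Lat 1 and 2 came next, at 4.86, while all other pairs lay between 11.2 and 87.8. An alternative given below counts each of these closest pairs once, and elsewhere their libraries stand as separate replicates. Values without S-BM 3 and 4 stand beside the results whose call this omission ends or whose log2 difference it moves by over 1.5 times.

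On GRCh38 (GENCODE v29) the FOS family genes are spread over the genome. FOSL1 lies on chromosome 11 at 65892049 to 65900573 on the minus strand. FOS lies on chromosome 14 at 75278774 to 75282230, FOSB on chromosome 19 at 45467995 to 45475179 and FOSL2 on chromosome 2 at 28392448 to 28417312, all on the plus strand. The JUN genes each have a single exon: JUN is on chromosome 1 at 58780788 to 58784327 (minus), JUNB on chromosome 19 at 12791496 to 12793315 (plus) and JUND on chromosome 19 at 18279760 to 18281622 (minus). BATF3 is on chromosome 1 at 212686418 to 212699985 (minus), MAFF on chromosome 22 at 38200767 to 38216511 (plus) and MAFK on chromosome 7 at 1530714 to 1543043 (plus). The library kit does not mark strand, so reads from overlapping genes on opposite strands cannot be told apart. This touches MAFK, which shares 809 bases, 24.0% of its exonic length, with TMEM184A, and JUNB, which shares 259 bases, 14.2%, with HOOK2.

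RefSeq promoters (GRCh38.p14) were at hand for 7 of the 10 members, not for FOSL1, BATF3 or MAFK, and were searched on both strands over the 250 bases before each start. The cAMP response element core TGACGT, a half-site shared by ATF, CREB and some AP-1 dimers, was present in 5 of the 7, namely FOS, FOSB, FOSL2, JUND and MAFF, and in 7.10% of all 35116 RefSeq promoter windows of that length. The full palindrome TGACGTCA, which contains that core, was present in JUND and MAFF and in 1.65% of all windows. The classic AP-1 element TGANTCA was in none of the 7 and in 6.57% of all windows. For JUN all 250 bases searched lay inside its annotated exon, so the sequence upstream of that exon was not searched. A match is a description of the letters and not evidence of binding. The upstream sequences of FOS, FOSB and JUND, whose values moved together in M-BM 2 and Lat 3, are shown whole up to the first annotated exon, and FOSL2 and MAFF as 30 bases around the match. All read 5′ to 3′ on the gene's strand, and the capitals mark TGACGT, its reverse complement ACGTCA or the palindrome.
FOS, chr14:75278578-75278773, plus strand: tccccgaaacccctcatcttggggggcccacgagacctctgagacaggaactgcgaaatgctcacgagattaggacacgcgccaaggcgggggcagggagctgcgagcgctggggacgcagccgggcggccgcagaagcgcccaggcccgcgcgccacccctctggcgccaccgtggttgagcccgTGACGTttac
FOSB, chr19:45467746-45467994, plus strand: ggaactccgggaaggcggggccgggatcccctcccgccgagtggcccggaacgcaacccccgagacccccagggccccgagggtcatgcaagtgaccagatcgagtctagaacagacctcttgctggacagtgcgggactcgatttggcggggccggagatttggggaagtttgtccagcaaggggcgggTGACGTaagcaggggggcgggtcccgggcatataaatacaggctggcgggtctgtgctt
JUND, chr19:18281623-18281872, minus strand: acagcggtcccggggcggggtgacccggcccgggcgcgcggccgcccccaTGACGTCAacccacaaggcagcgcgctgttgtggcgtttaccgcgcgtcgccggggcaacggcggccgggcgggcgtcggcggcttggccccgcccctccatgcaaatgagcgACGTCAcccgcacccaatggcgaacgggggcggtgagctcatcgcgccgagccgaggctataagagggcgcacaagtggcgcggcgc
FOSL2, chr2:28392780-28392809, plus strand: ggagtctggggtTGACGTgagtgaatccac
MAFF, chr22:38201928-38201957, plus strand: cggccgggtcggTGACGTCAccgcatgact
The first capital base stood 64 bases before the RefSeq start in FOS, 60 in FOSB, 66 in FOSL2 and 54 in MAFF, whereas in JUND the palindrome began 200 bases before the start and a further core 87 bases before it. The MAFF match falls inside an exon of another annotated MAFF transcript.

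FOSL1 (FRA-1) was the member with the widest spread of levels. Its normalized count was 152, 93.0, 188 and 133 in M-BM 1 to 4, 178, 179, 247 and 174 in Lat 1 to 4, 21.5, 6.88, 19.6 and 19.96 in S-BM 1 to 4, and 3.46, 3.90 and 3.57 in Pa 1 to 3. No library of one level overlapped the next: every M-BM and Lat library lay above every S-BM library, and every S-BM library above every Pa library, while M-BM and Lat overlapped. The means were 141 ± 39.4 in M-BM, 194 ± 34.8 in Lat, 17.0 ± 6.79 in S-BM and 3.64 ± 0.226 in Pa (SD, n = 4, 4, 4 and 3). On the log2(value + 1) scale, which understates the change of low genes, FOSL1 differed by 3.05 (SE 0.29) between M-BM and S-BM, an 8.29-fold difference, and by 3.54 (SE 0.29) between Lat and S-BM, an 11.6-fold difference. By size of the difference it ranked 31 from the top of 9646 genes in M-BM over S-BM and 23 in Lat over S-BM. FOSL1 was selected with these contrasts known, so nothing is read from its rank. Pa stands in a table normalized on its own, so its values were scaled by 1.01, the median of the ratio between tables over 8841 genes, and stand beside the others as levels only. On that footing the mean was 38.8 times the Pa mean in M-BM, 53.4 times in Lat and 4.66 times in S-BM. The Pa values of FOSL1 rest on only 52 to 65 reads per library. In bulk RNA, fewer cells with a transcript and less transcript per cell cannot be told apart.

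S-BM 2 was the lowest S-BM library for FOSL1, at 6.88 from 136 reads, and without it the differences were 2.69 in M-BM over S-BM and 3.18 in Lat over S-BM. ERBB2 did not divide the S-BM libraries in the way FOSL1 did. FOSL1 was at 21.5 in S-BM 1, which has ERBB2 at 4109, and at 19.6 and 19.96 in the low-ERBB2 libraries, S-BM 3 and 4. Without S-BM 3 and 4 the FOSL1 difference was 3.37 in M-BM over S-BM and 3.86 in Lat over S-BM.

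**Figure D1:**
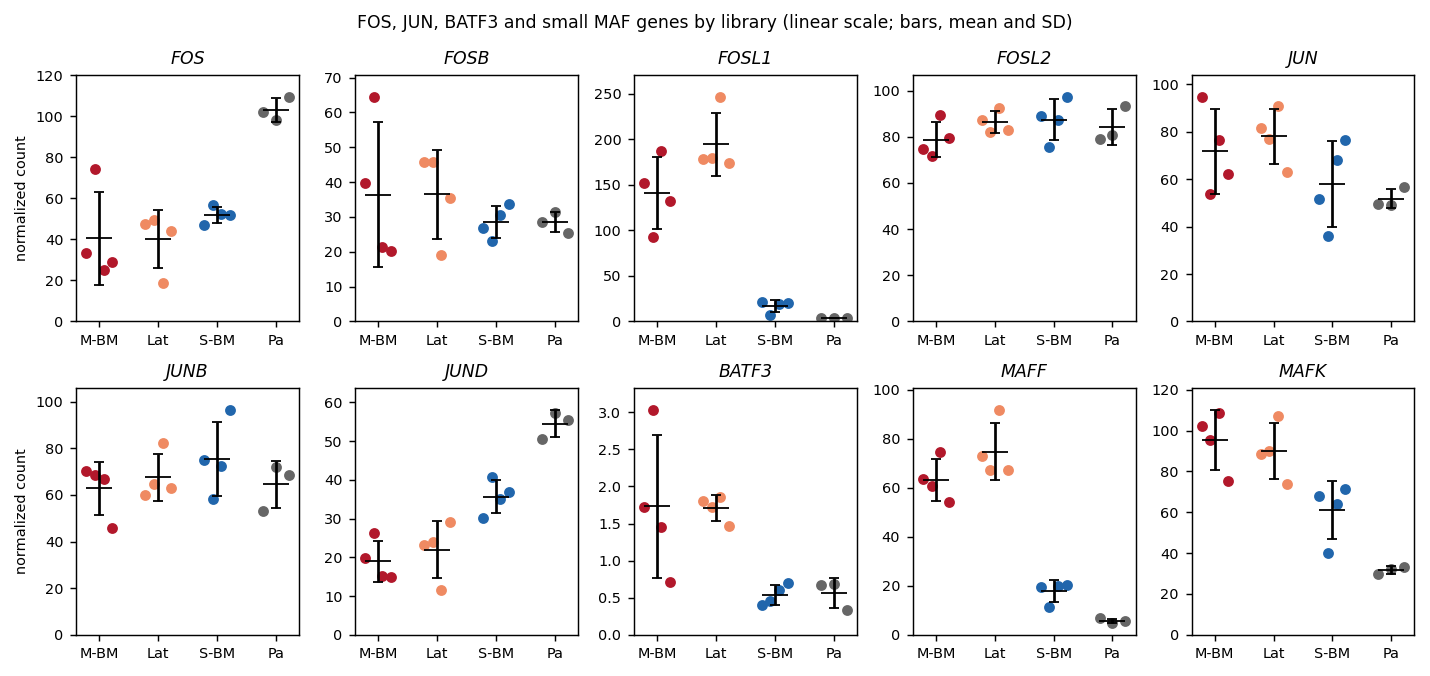
Normalized count (vertical axis, linear, from 0) of each of the 10 genes in every library, by group (M-BM, Lat, S-BM, Pa); points are libraries and bars are mean and SD. FOSL1 and MAFF were at 93.0 to 247 and 54.1 to 91.6 in M-BM and Lat libraries, above every S-BM and Pa library, whereas FOS and JUND were highest in Pa, at 98.2 to 109 and 50.7 to 57.3.

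The other FOS family genes did not share that pattern. FOS (c-Fos), the founding immediate early member, had values of 33.6, 74.4, 25.2 and 28.8 in M-BM 1 to 4, 47.6, 49.6, 19.0 and 44.1 in Lat 1 to 4, 47.0, 56.9, 52.2 and 51.9 in S-BM 1 to 4, and 102, 98.2 and 109 in Pa 1 to 3. Every brain-derived library was below every Pa library, and the M-BM, Lat and S-BM libraries overlapped. The mean was 0.392 times the Pa mean in M-BM, 0.388 times in Lat and 0.504 times in S-BM. The log2 difference was −0.49 (SE 0.32) in M-BM over S-BM and −0.45 (SE 0.32) in Lat over S-BM, within the spread between libraries. M-BM 2 carried much of that spread, since without it the M-BM over S-BM difference was −0.82 and FOS passed the threshold used across all genes, whereas without M-BM 3 it was −0.31. Lat 3 did so in Lat, where the difference without it was −0.14.

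FOSB, a close relative of FOS that is also induced by MAP kinases, was at 39.7, 64.4, 21.5 and 20.2 in M-BM 1 to 4, 45.8, 45.8, 18.9 and 35.4 in Lat 1 to 4, 26.9, 23.0, 30.7 and 33.7 in S-BM 1 to 4, and 28.6, 31.3 and 25.5 in Pa 1 to 3. All 4 groups overlapped, with log2 differences of 0.20 in M-BM over S-BM and 0.28 in Lat over S-BM (SE 0.33 each). Without M-BM 2 the M-BM over S-BM value for FOSB was −0.13, so its direction rests on that library, and leaving out other single libraries gave 0.10 to 0.42 in M-BM over S-BM and 0.14 to 0.55 in Lat over S-BM. Without S-BM 3 and 4 the FOSB values were 0.37 and 0.46. The ratio of the FOSB value to the FOS value within a library averaged 0.900 ± 0.202 in M-BM, 0.921 ± 0.0855 in Lat, 0.554 ± 0.105 in S-BM and 0.278 ± 0.0431 in Pa. Gene length cancels when this ratio is compared between libraries, and its lowest M-BM and Lat value, 0.701, lay above its highest S-BM value, 0.650.

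FOSL2 (FRA-2), the fourth member of the family, was the steadiest. It ranged over 71.8 to 89.3 in M-BM, 82.2 to 92.6 in Lat, 75.6 to 97.2 in S-BM and 79.0 to 93.2 in Pa. All groups overlapped, and the log2 difference of FOSL2 was −0.15 in M-BM over S-BM and −0.01 in Lat over S-BM (SE 0.10 each), or −0.06 and 0.07 without S-BM 3 and 4.

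Expressed per kilobase of exon and as a share of the summed FOS family level, the leading FOS family transcript differed between the groups. FOSL1 made up 69.8 ± 12.5% of that sum in M-BM, 75.8 ± 6.19% in Lat, 20.1 ± 7.05% in S-BM and 3.63 ± 0.322% in Pa (SD, n = 4, 4, 4 and 3). FOS made up 13.2% in M-BM, 10.1% in Lat, 39.9% in S-BM and 64.3% in Pa. FOSL2 made up 10.7% in M-BM, 9.19% in Lat, 28.6% in S-BM and 22.7% in Pa, and FOSB stood at 6.24% in M-BM, 4.85% in Lat, 11.4% in S-BM and 9.42% in Pa. FOSL1 had the largest share in each of the 8 M-BM and Lat libraries, between 51.5% and 85.1%, and FOS had the largest share in each of the 7 S-BM and Pa libraries, between 35.1% and 65.0%. The shares depend on which length is used: with coding length alone, FOSL1 made up 53.0% in M-BM, 59.7% in Lat, 11.1% in S-BM and 2.14% in Pa, and FOSL2, at 48.5%, was then ahead of FOS, at 25.1%, in S-BM.

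The summed FOS family level per kilobase was 109 ± 14.3 in M-BM, 139 ± 13.0 in Lat, 44.9 ± 4.57 in S-BM and 54.6 ± 2.49 in Pa. The sum of the other 3 members, leaving out FOSL1, was 25.1 to 47.5 in M-BM, 23.5 to 37.3 in Lat, 33.9 to 38.0 in S-BM and 50.9 to 55.6 in Pa. The family sum was thus higher in M-BM and Lat than in S-BM through the FOSL1 term, while the sum of the others overlapped between these 3 groups and was highest in Pa.

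**Figure D2:**
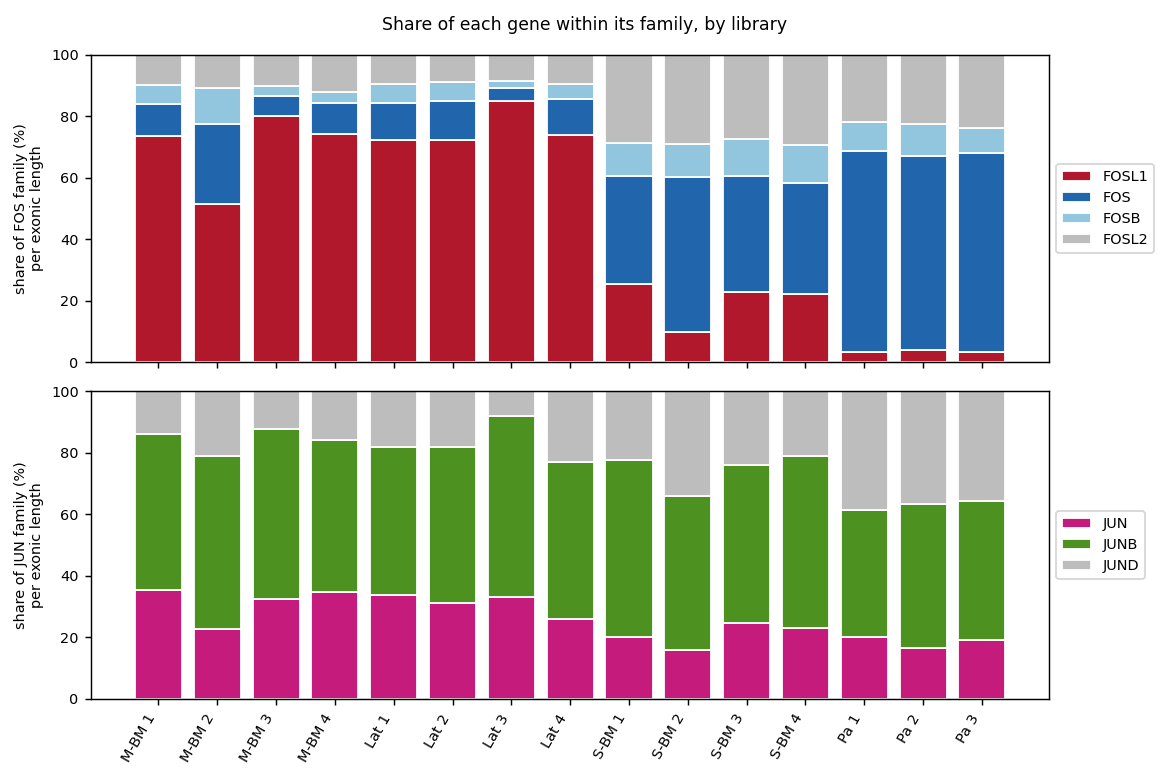
Share in percent (vertical axis) of each gene in the summed level per kilobase of exon, by library, for the FOS family and the JUN family; each stacked bar is a library and sums to the whole family. FOSL1 takes 51.5% to 85.1% of the FOS family in M-BM and Lat libraries and 3.37% to 25.6% in S-BM and Pa libraries, and on this scale, though not with coding length, JUNB is the largest part of the JUN family in every library.

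The JUN family, the AP-1 partners of FOS proteins, held no difference as large as that of FOSL1, although JUND differed from S-BM by more than FOS, FOSB and FOSL2 did. JUN (c-Jun), the member with the strongest activation domain, was at 94.7, 53.6, 76.5 and 62.1 in M-BM 1 to 4, 81.7, 77.1, 90.7 and 63.0 in Lat 1 to 4, 51.4, 35.9, 67.9 and 76.7 in S-BM 1 to 4, and 49.7, 49.3 and 56.5 in Pa 1 to 3. The groups overlapped, except that every Lat library lay above every Pa library. JUN differed by 0.33 (SE 0.22) in M-BM over S-BM and by 0.47 (SE 0.22) in Lat over S-BM, and did not pass the threshold. The size of the JUN difference depends on the S-BM libraries with low ERBB2, which hold the higher S-BM values. Without S-BM 3 and 4 the JUN difference was 0.69 in M-BM over S-BM and 0.84 in Lat over S-BM, and both passed, and without S-BM 4 alone the Lat difference, 0.62, passed as well. In the other direction, without S-BM 2 the JUN difference was 0.12 in M-BM over S-BM and 0.26 in Lat over S-BM, and without M-BM 1 it was 0.18 in M-BM over S-BM.

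JUNB, which can restrain JUN at some targets, was at 45.8 to 70.1 in M-BM, 59.9 to 82.2 in Lat, 58.0 to 96.3 in S-BM and 53.0 to 71.9 in Pa. The JUNB groups overlapped, with log2 differences of −0.26 in M-BM over S-BM and −0.15 in Lat over S-BM (SE 0.16 each), or −0.09 and 0.02 without S-BM 3 and 4. JUND, a constitutive member linked to slow growth in some cell types, went the other way from FOSL1. It was at 19.8, 26.2, 15.2 and 14.8 in M-BM 1 to 4, 23.3, 23.9, 11.6 and 29.2 in Lat 1 to 4, 30.3, 40.6, 34.9 and 36.9 in S-BM 1 to 4, and 50.7, 57.3 and 55.5 in Pa 1 to 3. Every M-BM and Lat library lay below every S-BM library, and every S-BM library below every Pa library. JUND differed by −0.90 (SE 0.24) in M-BM over S-BM and by −0.74 (SE 0.24) in Lat over S-BM, and without S-BM 3 and 4 the Lat difference, −0.72, no longer passed the threshold. Without Lat 3, the lowest Lat library, the Lat difference was −0.47.

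Within the JUN family the shares per kilobase of exon shifted towards JUN. JUN made up 31.3% in M-BM, 31.0% in Lat, 20.9% in S-BM and 18.5% in Pa, and JUND made up 15.8% in M-BM, 16.9% in Lat, 25.4% in S-BM and 37.0% in Pa. Per kilobase of exon JUNB had 53.0% in M-BM, 52.1% in Lat, 53.6% in S-BM and 44.5% in Pa. Which gene leads depends on the length used: with coding length JUN made up 47.7% in M-BM, 47.6% in Lat, 34.7% in S-BM and 31.4% in Pa, and JUNB 40.01% in M-BM, 39.3% in Lat, 43.9% in S-BM and 37.1% in Pa. On that scale JUN was ahead of JUNB in M-BM 1, 3 and 4 and in every Lat library. The summed JUN family level per kilobase was 65.0 ± 10.5 in M-BM, 71.0 ± 4.15 in Lat, 77.0 ± 12.9 in S-BM and 79.4 ± 7.80 in Pa, with overlapping ranges in M-BM, Lat and S-BM.

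MAFF, a stress-induced small MAF protein, followed FOSL1 at a smaller size. It was at 63.6, 60.7, 74.7 and 54.1 in M-BM 1 to 4, 73.1, 67.2, 91.6 and 67.1 in Lat 1 to 4, 19.6, 11.2, 20.02 and 20.5 in S-BM 1 to 4, and 6.66, 4.90 and 5.55 in Pa 1 to 3. As with FOSL1, M-BM and Lat overlapped each other and lay above S-BM, and S-BM lay above Pa. MAFF differed by 1.80 (SE 0.17), or 3.48-fold, in M-BM over S-BM and by 2.03 (SE 0.17), or 4.09-fold, in Lat over S-BM. Its mean was 11.1 times the Pa mean in M-BM, 13.1 times in Lat and 3.13 times in S-BM, where the Pa values rest on 78 to 101 reads per library.

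MAFK, a small MAF protein that pairs with NFE2L2 and with the repressor BACH1, was at 102, 95.2, 109 and 75.2 in M-BM 1 to 4, 88.4, 90.1, 107 and 73.8 in Lat 1 to 4, 68.1, 40.1, 64.0 and 71.6 in S-BM 1 to 4, and 29.8, 32.4 and 33.4 in Pa 1 to 3. As with MAFF, M-BM and Lat lay above S-BM, and S-BM above Pa, but the gap between the lowest Lat library and the highest S-BM library was small. MAFK differed by 0.66 (SE 0.18), or 1.58-fold, in M-BM over S-BM and by 0.58 (SE 0.18), or 1.49-fold, in Lat over S-BM. TMEM184A, which overlaps MAFK on the opposite strand, had a mean value of 38.9, and its part in the MAFK reads was not tested.

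BATF3, known from dendritic cells and from lymphomas, was close to the limit of detection, with 15 to 67 reads per M-BM library, 21 to 36 per Lat library, 7 to 12 per S-BM library and 6 to 11 per Pa library. Its value averaged 1.73 ± 0.964 in M-BM, 1.71 ± 0.175 in Lat, 0.538 ± 0.136 in S-BM and 0.562 ± 0.202 in Pa. The lowest M-BM library, at 0.714, was barely above the highest S-BM library, at 0.698. BATF3 fell below the filter of 10 in 4 libraries and was not tested.

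Of the 10 members, 9 passed that filter. In M-BM over S-BM, FOSL1, MAFF and MAFK were called higher and JUND lower, at an adjusted p under 0.05 by limma, beside 52.7% of all 9646 genes tested that were called in either direction. In Lat over S-BM the same 4 were called, beside 59.7% of all genes. Both comparisons use the same S-BM libraries. The members were selected with these contrasts known, so nothing is read from these counts. The libraries of the called members did not overlap those of S-BM, which was so for 46.2% of all genes in M-BM over S-BM and 54.5% in Lat over S-BM. In M-BM over Lat, limma called 0 of the 9, with 0 at an unadjusted p under 0.05 and 0 by edgeR or DESeq2, beside 0.145% of all genes.

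Between M-BM and Lat all 9 members overlapped, and the groups were apart in 7.3% of all genes. The largest difference was that of FOSL1, at −0.49 (SE 0.29) and −0.30 without M-BM 2, followed by MAFF at −0.23 (SE 0.17), and the others lay between −0.17 and 0.08. FOSL1 was lower in M-BM 1, 2 and 4 than in every Lat library, but M-BM 3, at 188, exceeded 3 of the 4 Lat libraries.

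**Figure D3:**
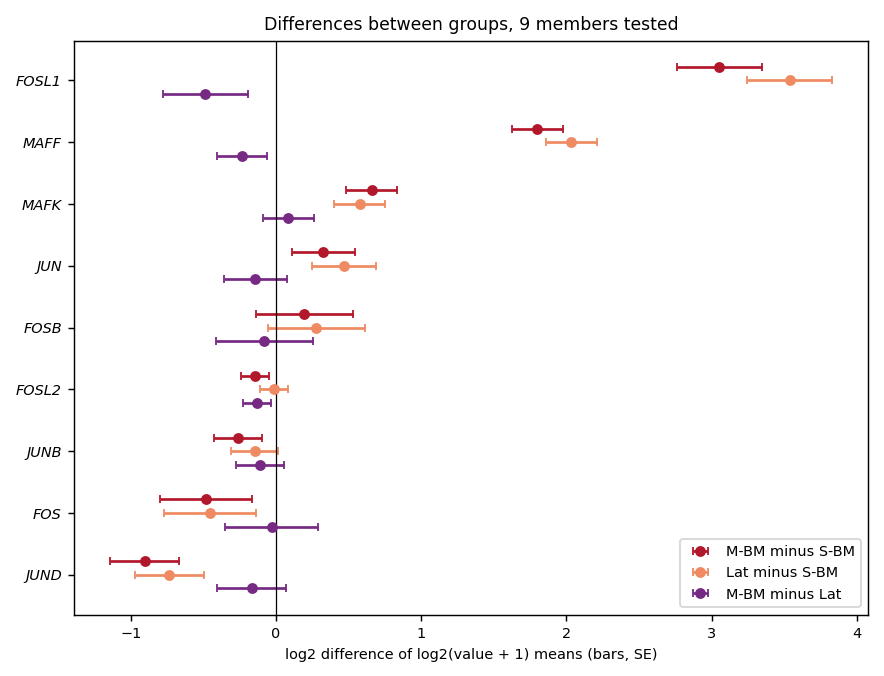
Log2 difference on the log2(value + 1) scale (horizontal axis) of the 9 members above the filter, for the 3 pairs of brain-derived groups; points are the fitted differences and bars their standard errors. FOSL1 stands at 3.05 and 3.54 and MAFF at 1.80 and 2.03 against S-BM, JUND at −0.90 and −0.74, and no member departs from 0 by more than 0.49 in M-BM minus Lat.

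Libraries of the same group also differed among themselves, and FOS, FOSB and JUND did so together. On the log2 scale M-BM 2 stood above its group mean by 1.00 in FOS, 0.96 in FOSB and 0.48 in JUND. Lat 3 stood below its group mean, with deviations of −0.95 in FOS, −0.83 in FOSB and −0.80 in JUND. In the same Lat 3 library FOSL1 was above its group mean by 0.36, MAFF by 0.30 and JUNB by 0.29, and in M-BM 2 FOSL1 was below it, at −0.55. FOSL1 and FOS therefore lay on opposite sides of the group mean in M-BM 2 and Lat 3, the libraries where FOS stood furthest from its group mean.

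The S-BM libraries differed along another line. S-BM 2 was the lowest for FOSL1, at −1.08, and also for JUN at −0.62, MAFF at −0.59, MAFK at −0.56, JUNB at −0.35, FOSB at −0.29 and FOSL2 at −0.20, whereas FOS, at 0.13, and JUND, at 0.19, were above their group means there. The immediate early genes EGR1 and IER2, chosen for this check after their values were seen, followed FOS in part of the libraries named. EGR1 was at 43.5 in M-BM 2, against 38.6 to 47.2 in the other M-BM libraries, and at 44.2 in Lat 3, below the 49.3 to 58.7 of the other Lat libraries. IER2 was at 52.7 in M-BM 2, against 48.3 to 58.7 in the other M-BM libraries, and at 68.3 in Lat 3, above the 60.4 to 64.0 of the other Lat libraries. In Lat 3 EGR1 was thus low along with FOS and IER2 was not, and in M-BM 2 both lay within the range of their group. ATF3, DUSP1, NR4A1, DUSP5 and IER3 were also looked at after their values were seen. ATF3 had its highest M-BM value in M-BM 2, at 68.4, and its highest Lat value in Lat 3, at 78.2. DUSP1 did the same, at 32.4 and 50.2. NR4A1, DUSP5 and IER3 lay within the range of the other M-BM libraries in M-BM 2. In Lat 3 IER3 had its highest Lat value, at 403, DUSP5 its lowest, at 102.6, and NR4A1 lay between.

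**Figure D4:**
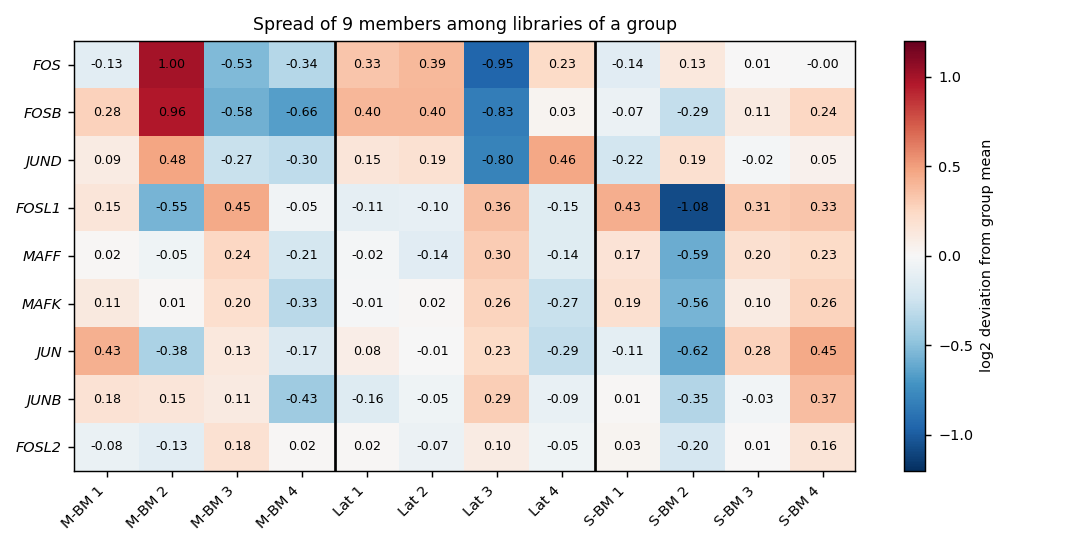
Deviation of each member from its own group mean on the log2(value + 1) scale (colour), for each M-BM, Lat and S-BM library (columns) and each of the 9 members above the filter (rows). FOS, FOSB and JUND are high together in M-BM 2 and low together in Lat 3, and FOSL1, JUN, MAFF and MAFK are lowest in S-BM 2, with FOSL1 at −1.08.

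The genes most like a member over the 12 M-BM, Lat and S-BM libraries were found by the root mean square difference of log2 profiles centred on their means, where 0 is identical. Closest to FOSL1 were AGPAT9 at 0.31, MYEOV at 0.46 and ARNT2 at 0.46. AGPAT9, an enzyme of glycerolipid synthesis, averaged 72.6 in M-BM, 89.2 in Lat and 8.33 in S-BM. MAFF was the nearest member to FOSL1, at rank 34 and a difference of 0.70. Closest to MAFF were PYROXD1 at 0.17, C17orf51 at 0.18 and LIF at 0.18. Closest to JUND were POLD1, the catalytic subunit of DNA polymerase delta, at 0.16, RHBDF1 at 0.18 and MED25, a Mediator subunit, at 0.18. These ranks describe the 12 libraries and are dominated by the split between S-BM and the rest.

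Other genes of the AP-1 network were taken from 8 lists by role, and their adjusted p-values come from limma over all 9646 genes. A gene named for 1 comparison only fell outside the naming rule in the other, and may differ from S-BM there too. The partner bZIP factors dimerize or compete with FOS and JUN proteins. Of 11 listed, 8 were tested, 4 were higher and 2 lower in M-BM over S-BM, and likewise in Lat over S-BM, with list medians of 0.01 and 0.15, against 0.01 over all genes in both. Over all genes, 26.9% were higher and 25.8% lower in M-BM over S-BM, and 30.2% were higher and 29.4% lower in Lat over S-BM. DDIT3 (CHOP), a stress-induced factor, averaged 51.6 ± 4.04 in M-BM and 17.1 ± 4.38 in S-BM, a log2 difference of 1.57 (SE 0.16, adjusted p = 6.9e-06 by limma), and 59.3 ± 11.8 in Lat, a difference of 1.75 (adjusted p = 1.37e-06). ATF4, the main effector of the integrated stress response, averaged 548 ± 33.8 in M-BM, 578 ± 33.9 in Lat and 312 ± 28.7 in S-BM, with differences of 0.81 (adjusted p = 1.09e-05) and 0.89 (adjusted p = 2.66e-06). CEBPB rose in Lat, at 145 ± 17.97 against 96.1 ± 16.02 in S-BM (0.59, adjusted p = 0.00282), and in M-BM, at 132 ± 21.6 (0.45, adjusted p = 0.0172), where the call was lost without M-BM 2 (0.0546), without S-BM 3 (0.0590), without S-BM 3 and 4 (a difference of 0.28, adjusted p = 0.172) and with the closest pairs counted once (0.0577). ATF7, which binds cAMP response elements, fell to 20.3 ± 0.489 in M-BM and 19.2 ± 1.79 in Lat, against 30.1 ± 4.02 in S-BM, with differences of −0.54 (adjusted p = 0.00101) and −0.62 (adjusted p = 0.000247). CREB1 fell to 103 ± 8.07 in M-BM, whereas S-BM had 131 ± 6.81 (−0.35, adjusted p = 0.0042), and ATF2 to 94.9 ± 12.6 in Lat, against 116 ± 6.41 in S-BM (−0.30, adjusted p = 0.0287). The ATF2 call was lost without Lat 3 (0.0857), S-BM 2 (0.0684) or S-BM 3 (0.0505), or without both S-BM 3 and 4 (0.0598).

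Among the MAF and CNC factors, the dimer partners of MAFF and MAFK and the large MAF proteins, 7 of 11 were tested. Of these, 4 rose and 0 fell in each of the comparisons with S-BM, with list medians of 0.33 in M-BM and 0.45 in Lat. MAF, a large MAF protein with its own activation domain, was at 62.9, 149.6, 107 and 84.9 in M-BM 1 to 4, 57.4, 64.0, 59.7 and 86.0 in Lat 1 to 4, and 14.7, 19.0, 26.7 and 24.3 in S-BM 1 to 4. No M-BM or Lat library overlapped S-BM, and the MAF differences were 2.17 (SE 0.24, adjusted p = 1.08e-05 by limma) and 1.63 (SE 0.24, adjusted p = 5.6e-05). MAFG, the third small MAF gene, averaged 87.2 ± 10.05 in M-BM, 96.9 ± 14.6 in Lat and 43.5 ± 4.57 in S-BM, with differences of 0.99 (adjusted p = 2.53e-05) and 1.13 (adjusted p = 4.29e-06). NFE2L2 (NRF2), with which they pair, averaged 163 ± 7.20 in Lat and 119.5 ± 11.3 in S-BM (0.45, adjusted p = 0.0016). Its relative NFE2L1 averaged 328 ± 66.7 in M-BM and 252 ± 18.7 in S-BM (0.36, adjusted p = 0.0251), a call lost without M-BM 2, M-BM 3 or S-BM 1 (0.0655 to 0.0777).

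The kinases that feed AP-1 split by direction. Of 34 MAP kinases and kinases upstream, 30 were tested, and 8 rose and 8 fell in M-BM over S-BM and 8 rose and 9 fell in Lat over S-BM, with medians of 0.10 in both. MAPK3 (ERK1) fell to 17.0 ± 1.56 in M-BM and 14.9 ± 3.48 in Lat, against 34.8 ± 5.02 in S-BM (−0.98, adjusted p = 0.000132, and −1.19, adjusted p = 1.82e-05, by limma). MAPK13 (p38 delta) fell to 31.8 ± 11.3 in M-BM and 24.5 ± 3.09 in Lat, against 87.2 ± 9.29 in S-BM (−1.48, adjusted p = 2.88e-05, and −1.79, adjusted p = 3.4e-06). MAP3K5 (ASK1), a stress kinase above JNK and p38, fell to 29.1 ± 7.56 in M-BM and 17.7 ± 2.64 in Lat, against 56.5 ± 10.9 in S-BM (−0.95, adjusted p = 0.000611, and −1.62, adjusted p = 5.71e-06). Other p38 isoforms rose. MAPK12 (p38 gamma) averaged 14.7 ± 6.64 in M-BM, 14.98 ± 1.997 in Lat and 2.49 ± 1.69 in S-BM (2.19, adjusted p = 0.000214, and 2.32, adjusted p = 9.12e-05), and MAPK11 (p38 beta) averaged 12.03 ± 4.39 in M-BM, 12.6 ± 1.77 in Lat and 3.95 ± 1.73 in S-BM (1.40, adjusted p = 0.00106, and 1.52, adjusted p = 0.000432). MAP2K3, which phosphorylates p38 kinases, averaged 49.1 ± 8.13 in M-BM, 55.3 ± 7.09 in Lat and 24.7 ± 2.25 in S-BM (0.96, adjusted p = 3.83e-05, and 1.13, adjusted p = 5.28e-06).

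The serum response factor and the ternary complex factors ELK1, ELK3 and ELK4 act at the FOS promoter. The list named after them also holds other genes, among them ETS1, ETS2, MKL2 and MEF2A. All 10 were tested, with 3 higher and 3 lower in M-BM over S-BM, 4 higher and 2 lower in Lat over S-BM, and medians of 0.10 and 0.22. ELK4 (SAP-1) averaged 298 ± 16.7 in M-BM, 318 ± 27.9 in Lat and 187 ± 39.7 in S-BM (0.69, adjusted p = 0.00052, and 0.78, adjusted p = 0.00014, by limma), and its M-BM difference was 0.45 without S-BM 3 and 4. ELK1 averaged 60.4 ± 5.74 in M-BM, 60.5 ± 3.98 in Lat and 38.8 ± 4.29 in S-BM (0.63 in both, adjusted p = 0.000177 and 0.000113), and ELK3 was higher in M-BM at 47.0 ± 5.86, while S-BM had 29.95 ± 5.14 (0.64, adjusted p = 0.00131). In Lat, ELK3 was at 43.0 to 54.4, also above every S-BM library. ETS1 rose in Lat to 159 ± 47.0, against 82.6 ± 15.1 in S-BM (0.92, adjusted p = 0.00161). ETS2 fell to 168 ± 24.6 in M-BM and 135 ± 15.4 in Lat, against 336 ± 129.7 in S-BM (−0.93, adjusted p = 0.00338, and −1.24, adjusted p = 0.000321). Its S-BM libraries stood apart by ERBB2, with 446 and 449 in S-BM 3 and 4 but 209.6 in S-BM 1 and 239 in S-BM 2. Without S-BM 3 and 4 the ETS2 difference was −0.43 in M-BM over S-BM (adjusted p = 0.0381) and −0.74 in Lat over S-BM (adjusted p = 0.00174). MKL2, a cofactor of the serum response factor, averaged 60.8 ± 8.69 in M-BM, 59.1 ± 9.67 in Lat and 91.3 ± 27.7 in S-BM, with adjusted p = 0.0271 and 0.0157 by limma. The M-BM call for MKL2 was lost without M-BM 1, M-BM 3, S-BM 1 or S-BM 2 (adjusted p = 0.0693 to 0.0834), and the Lat call without Lat 3, S-BM 1 or S-BM 2 (0.0501 to 0.0518), while without S-BM 3 and 4 the MKL2 differences were −0.91 and −0.95, against −0.54 and −0.59 with them. MEF2A averaged 51.2 ± 4.57 in M-BM and 61.0 ± 3.23 in S-BM (−0.25, adjusted p = 0.024), a call lost without M-BM 1, M-BM 2 or S-BM 3 (adjusted p = 0.0612 to 0.0688), without both S-BM 3 and 4 (0.0826) and with the closest pairs counted once (0.0561).

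The feedback genes of the MAP kinase pathway, phosphatases and inhibitors transcribed when ERK is active, were called in 1 direction only. Of 20 listed, 16 were tested, and 11 rose and 0 fell in M-BM over S-BM and 12 rose and 0 fell in Lat over S-BM, with medians of 0.71 and 0.82. ETV1, an ETS factor that ERK controls, was at 36.9, 62.2, 53.9 and 42.2 in M-BM 1 to 4, 39.96, 45.6, 39.3 and 47.0 in Lat 1 to 4, and 9.34, 9.06, 0.975 and 1.40 in S-BM 1 to 4. The M-BM and Lat libraries lay above all S-BM libraries, and the ETV1 differences were 3.37 (SE 0.45, adjusted p = 4.41e-05 by limma) and 3.22 (SE 0.45, adjusted p = 3.89e-05). S-BM 3 and 4 were the lowest S-BM libraries for ETV1, and without them the differences were 2.26 and 2.10. ETV5 averaged 154 ± 10.3 in M-BM, 146 ± 12.6 in Lat and 66.8 ± 22.3 in S-BM (1.24, adjusted p = 3.88e-05, and 1.16, adjusted p = 3.76e-05). PHLDA1 averaged 493 ± 131 in M-BM, 436 ± 15.8 in Lat and 176 ± 47.7 in S-BM (1.48, adjusted p = 2.9e-05, and 1.34, adjusted p = 3.62e-05). In Pa, where FOSL1 was lowest, ETV1 was at 6.92 to 9.36, ETV5 at 28.5 to 39.9 and PHLDA1 at 133 to 139.

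Of 29 other immediate early genes, 22 were tested, and 11 rose and 1 fell in M-BM over S-BM and 15 rose and 2 fell in Lat over S-BM, with medians of 0.32 and 0.51. RHOB, a small GTPase induced by growth factors and DNA damage, averaged 85.9 ± 24.4 in M-BM, 95.4 ± 36.4 in Lat and 35.5 ± 5.29 in S-BM (1.22, adjusted p = 0.0005, and 1.35, adjusted p = 0.000169, by limma). GADD45A, a stress sensor, averaged 77.9 ± 28.0 in M-BM, 89.0 ± 29.9 in Lat and 34.1 ± 6.91 in S-BM (1.11, adjusted p = 0.00382, and 1.32, adjusted p = 0.000854). IER5 averaged 102 ± 11.7 in M-BM and 64.6 ± 12.1 in S-BM (0.66, adjusted p = 0.00112), and CYR61 averaged 91.6 ± 28.1 in Lat and 44.9 ± 2.11 in S-BM (0.96, adjusted p = 0.00234). IER5 was at 105 to 142 in Lat, also above every S-BM library, and CYR61 at 44.6 to 89.0 in M-BM, which overlapped S-BM. ZFP36L2, an RNA-binding protein that speeds decay of messages, fell to 83.3 ± 5.28 in M-BM and 79.7 ± 17.7 in Lat, against 129 ± 19.9 in S-BM (−0.61, adjusted p = 0.00367, and −0.70, adjusted p = 0.00114). BTG2, an antiproliferative gene, fell to 15.3 ± 3.03 in Lat, against 26.7 ± 5.44 in S-BM (−0.76, adjusted p = 0.00117).

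Of 34 genes known as AP-1 targets, 16 were tested. In M-BM over S-BM 9 rose and 1 fell, in Lat over S-BM 9 rose and 0 fell, and the medians were 0.77 and 0.85. AXL, a receptor tyrosine kinase of mesenchymal-like cells, was at 778, 478, 358 and 272 in M-BM 1 to 4, 433, 411, 329 and 351 in Lat 1 to 4, and 50.02, 7.03, 109 and 114 in S-BM 1 to 4. Its groups did not overlap with S-BM, and the AXL differences were 3.20 (SE 0.63, adjusted p = 0.000896 by limma) and 2.99 (SE 0.63, adjusted p = 0.0011). S-BM 2, the lowest S-BM library for FOSL1, was also the lowest for AXL, but Lat 3, the highest Lat library for FOSL1, was the lowest Lat library for AXL. FN1 (fibronectin) averaged 1468 ± 302 in M-BM, 2626 ± 1552 in Lat and 411 ± 96.1 in S-BM (1.84, adjusted p = 0.000135, and 2.55, adjusted p = 5.74e-06), and Lat 3, the highest Lat library for FOSL1, was also the highest for FN1, at 4951. Among S-BM libraries FN1 was instead highest in S-BM 2, at 546, where FOSL1 was lowest. LIF, a cytokine, averaged 74.3 ± 13.2 in Lat and 20.4 ± 5.02 in S-BM (1.83, adjusted p = 3.4e-06). In M-BM, LIF was at 43.7 to 67.6, also above every S-BM library. EDN1 (endothelin 1) averaged 33.7 ± 17.6 in M-BM and 52.8 ± 6.31 in S-BM with overlapping libraries (−0.75, adjusted p = 0.0459), and that call was lost in 15 of 24 alternatives, where its adjusted p ranged up to 0.196.

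JUN protein is removed by ubiquitin ligases, of which 4 genes were listed and 3 tested. ITCH averaged 453 ± 19.0 in M-BM, 469.9 ± 18.004 in Lat and 305 ± 38.0 in S-BM (0.58, adjusted p = 0.000195, and 0.63, adjusted p = 6.56e-05, by limma). FBXW7 averaged 60.8 ± 8.88 in M-BM, 56.1 ± 7.84 in Lat and 39.6 ± 4.39 in S-BM (0.60, adjusted p = 0.00151, and 0.49, adjusted p = 0.00488), and its Lat call was lost without S-BM 3 and 4 (0.0689). Transcript levels say nothing of protein levels, which were not measured. In M-BM over Lat, 0 of the 112 tested genes of the 8 lists passed by limma, with 18 at an unadjusted p under 0.05. There edgeR called 0 and DESeq2 called 2, DUSP1 and MAP3K5, named after their values were seen. These lists are described by counts and medians only, and nothing in them is shown to be particular to AP-1.

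**Figure D5:**
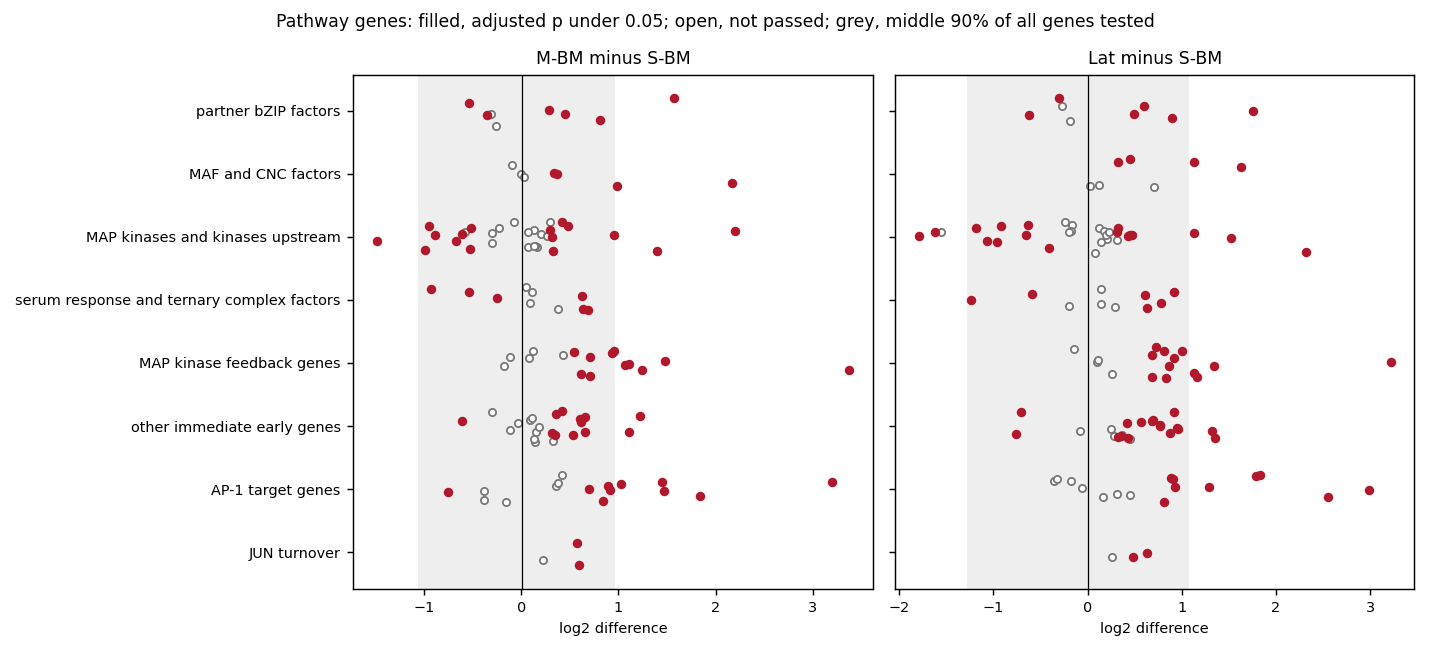
Log2 difference (horizontal axis) of each tested gene of the 8 lists of the AP-1 network (rows), in M-BM minus S-BM and Lat minus S-BM; filled points passed an adjusted p of 0.05 by limma, open points did not, and the grey band holds the middle 90% of all genes tested. The feedback genes have 11 and 12 higher and 0 lower, and the MAP kinases have 8 higher with 8 and 9 lower.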

How the data were processed

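The authors deposited normalized read counts, a signal per gene and library, with M-BM, Lat and S-BM in one table and Pa in another; how they were scaled is not given in the sources used here. Per the labels' protocols, RNA came from an RNeasy extraction and went into TruSeq RNA v2 libraries, a kit that does not mark strand. Bowtie 0.12.2 was used on GRCh38, per the submitters' processing notes; no source used here names the counter or the annotation. Each column of the deposited signal consisted of whole multiples of a step, so whole reads were recovered, for 100% of values within 0.05 reads. Of 19845 rows, 27 names had become dates and 2 of them repeat another; these are not members.

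The 12 M-BM, Lat and S-BM libraries were fitted together with limma 3.58.1 (R 4.3.3) on log2(value + 1) of the signal as deposited, with a mean per group and a trended variance. Genes reaching a value of 10 in at least 4 libraries were tested, 9646 in all. P-values are two-sided and adjusted over all of them by the Benjamini-Hochberg method, with a threshold of 0.05. Pa, normalized separately, was not tested. Family shares used values divided by merged GENCODE v29 exon length.

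Members, lists and tests were chosen with earlier results of these data known. Named genes are the members; up to 3 called genes per direction, list and contrast, by size of the difference, whose higher group mean reached 10; and the 3 genes most like each of the 3 members with the widest range. One gene that this rule names is not reported here. EGR1, IER2, ATF3, DUSP1, NR4A1, DUSP5 and IER3 were chosen after their values were seen. Alternatives included edgeR 4.0.16 and DESeq2 1.42.0 on the recovered reads, other filters, pseudocounts and scalings, a replicate block, and leaving out each library. Scripts were tested on simulated data. Replicate numbers were not shown to pair the libraries. Residuals of same-numbered libraries correlated at −0.272 to 0.319 over 12 pairs, of which 4 exceeded 0.1. Those of other numbers correlated at −0.305 to 0.322 over 36 pairs, of which 7 exceeded 0.1.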

Additional observations from a re-analysis of the deposited data

Results flagged for a closer look

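Within groups of 4, a library was singled out by Dixon's test, when its gap to the nearest of the others was too large a part of the group's range; chance does this in about 1 of 20 groups. Of 51 groups checked over member levels and family shares, 7 held such a library. The 51 are not independent, because the shares are computed from the same levels and the members come from the same libraries. The count is therefore not compared with that rate.

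In M-BM 2 FOS was at 74.4, while the rest of M-BM had 25.2 to 33.6. In M-BM 4 JUNB was at 45.8, while the rest of M-BM had 66.7 to 70.1. In Lat 3 FOSL1 was at 247, while the rest of Lat had 174 to 179. Its share of the FOS family in Lat 3 was 85.1%, and 72.2% to 73.7% elsewhere in Lat, and the FOS share there was 4.11%, and 11.7% to 12.5% elsewhere in Lat. In S-BM 2 FOSL1 was at 6.88, while the rest of S-BM had 19.6 to 21.5, and MAFF was at 11.2, while the rest had 19.6 to 20.5. Lat 3 and S-BM 2 thus hold 5 of the 7. These libraries also stood apart over all genes, so their departures were not confined to the members. Lat 3 differed from the other Lat libraries with a chi-square of 47.7 to 55.2 per gene, against 4.86 to 17.1 between those others. S-BM 2 differed from S-BM 3 and 4 by 74.8 and 87.8, the largest values of all pairs within a group.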

How the results depend on the processing

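Over 24 alternatives per contrast no direction of a called result reversed. Of the members' log2 differences, 646 stayed within their spread and 2 did not, JUN without S-BM 3 and 4, at 0.69 in M-BM over S-BM and 0.84 in Lat over S-BM. FOSL1 ranged over 2.69 to 3.37 in M-BM over S-BM and 3.18 to 3.86 in Lat over S-BM, and the median of all genes lay between −0.01 and 0.03. With the replicate block, whose numbers were not shown to pair the libraries, 4 members were called in M-BM over S-BM, 4 in Lat over S-BM and 0 in M-BM over Lat, as without it. Genes called in M-BM over Lat, 14 over all genes, numbered 26 with a filter of 1, 24 with no filter, 5 with only the groups compared in the fit, 141 by DESeq2, 3 with the closest pairs counted once (added after the data were seen) and 3 to 30 leaving out each library; the cause was not tested. The FOSL1 share of its family was 47.5% in M-BM, 54.2% in Lat, 9.02% in S-BM and 1.66% in Pa without division by length, and 53.0%, 59.7%, 11.1% and 2.14% in the same groups with coding length, also added after the data were seen; here the divisor itself sets the change. Leaving out each library gave 66.5% to 75.9% in M-BM, 72.8% to 77.0% in Lat, 18.2% to 23.5% in S-BM and 3.45% to 3.76% in Pa. Of the named network genes' values, 1521 stayed on their side of the threshold and 39 lost their call. BATF3 was the member most limited by depth, at 6 to 67 reads per library. Few reads also lie behind the Pa values of FOSL1, at 52 to 65 per library, and of MAFF, at 78 to 101.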

Other observations

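The ratio of the FOSL1 value to the MAFF value within a library, in which gene length and library scaling cancel between libraries, averaged 2.22 ± 0.463 in M-BM, 2.60 ± 0.112 in Lat, 0.917 ± 0.209 in S-BM and 0.653 ± 0.138 in Pa (SD, n = 4, 4, 4 and 3). Its lowest value in M-BM and Lat was 1.53, in M-BM 2, and its highest in S-BM and Pa was 1.096. The ratio of FOSL1 to FOS spread far more, over 1.25 to 7.44 in M-BM and 3.61 to 13.0 in Lat, against 0.121 to 0.457 in S-BM and 0.0326 to 0.0397 in Pa.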
